A study of Mus musculus with 6 samples.

Results

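The cytosolic ribosomal protein genes encode the protein part of the ribosome that translates messenger RNA in the cytoplasm. They were taken from the count table by gene symbol: Rpl or Rps followed by a number and, where present, an a or x, together with the stalk genes Rplp0, Rplp1 and Rplp2 and the laminin receptor homologue Rpsa. The annotation held 76 such symbols. Of these, 75 had a row among the 38561 genes of the table, 45 for the large and 30 for the small subunit. Rpl24 was not matched to a row and is not analysed here.

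The samples were vomeronasal organs, the pheromone-sensing tissue of the nose, from male mice of the outbred CD-1 stock. Males had been exposed to pups (3 libraries) or to a control that the labels do not describe further (3 libraries). Organ lysates went through immunoprecipitation against phosphorylated S6, a protein of the small ribosomal subunit, and all 6 libraries were made from the precipitate. Age, length of exposure and any pooling of animals are not stated in the labels. Nothing there says that replicates are separate animals either, and p-values then cover only the spread between libraries, of which an unknown part may be technical.

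Ribosomal proteins assemble with ribosomal RNA in mostly equal numbers, so cells make them together. Many of their mRNAs begin with a C followed by a run of pyrimidines, the 5′ terminal oligopyrimidine or TOP motif, through which mTORC1 signalling controls their translation. S6, encoded by Rps6, is phosphorylated by S6 kinases of the same pathway and, in active neurons, after synaptic or sensory stimulation. The mammalian genome also carries many processed pseudogenes of these genes, which are intronless copies of their mRNAs inserted elsewhere.

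The start-site sequences of the members are shown because the TOP motif is the feature these mRNAs are best known to share. RefSeq promoter entries (build GRCm38.p6) matched 55 of the 75 members by symbol. In a window of 30 bases, 5 before the annotated start and 25 from it on, a run was counted where a C within 3 bases of the start was followed by at least 4 C or T letters on the transcribed strand. Of the 55 members, 23 (41.8%) had such a run, 14 of 33 for the large and 9 of 22 for the small subunit, against 13.5% of 27025 genes. The windows below are written 5′ to 3′ with the run in capitals. They are those of Rps6, encoding the protein that the antibody recognises, of Rpl28, Rpl27a and Rpl35a, whose values are described below, and of the stalk gene Rplp2 and the short gene Rps21.
Rps6: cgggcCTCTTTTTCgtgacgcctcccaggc
Rpl28: tgtctCTCTTTCCgtctccggccgccatag
Rpl27a: gctcCTCCCTTTTCCCTTTCTgccaccgcc
Rpl35a: ccttcCTCTTTCCgccatcttggcgcctgt
Rplp2: tcttcCTTTCgccgccggacgccgccgagg
Rps21: ccgccCTCCTgcccaatagtgctgcggagg
The run of Rps6 lay in chr4:86857343-86857372 on the minus strand and that of Rpl28 in chr7:4792960-4792989 on the plus strand. Runs had a median of 8 and a maximum of 17 letters, the longest shown being that of Rpl27a. For the abundant Rpl4 and for Rps12, the following windows held no run at the annotated start.
Rpl4: tgtgggagcagccgggtagagaggagcgtg
Rps12: cggccaccgccggccttttcccctgccgcc
In Rps12 a stretch of pyrimidines stands further inside the window, beyond the distance allowed here. A window without a run says only that these letters were not found near the RefSeq start.

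Ribosomal protein genes held a small share of each library. After control exposure they took 0.313, 0.311 and 0.388% of all counts in replicates 1 to 3, and after pup exposure 0.542, 0.317 and 0.371%. The group means were 0.338% ± 0.044 (SD, n = 3) and 0.410% ± 0.117 (SD, n = 3), and the groups overlapped. Pup exposure replicate 1 was the highest, and without it the difference between means fell from 0.0724 to 0.00634 percentage points. Total counts were 10590716 to 11240065 after control and 18199476 to 20871266 after pup exposure. The 50 most abundant genes took between 42.8% and 71.1% of a library. Outside those genes the ribosomal protein share was 0.631, 0.693 and 1.34% after control and 1.24, 0.554 and 0.909% after pup exposure, so that control replicate 3 then stood highest.

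The counts did not rest evenly on the members. The level of a gene is given here as its counts scaled to a common library total (CPM) per kilobase of its principal transcript. Rpl41, the shortest ribosomal protein gene by coding length, had the highest mean level, 430 CPM per kb, and Rps9 with 379, Rpl32 with 312, Rpl4 with 300 and Rps14 with 262 were also among the highest. Across libraries Rpl41 was at 232, 273 and 594 CPM per kb after control and 430, 394 and 655 after pup exposure. Rps9, a small subunit body protein, was at 294, 334 and 436 after control and 600, 298 and 316 after pup exposure, and Rpl4, a large subunit protein near the peptidyl transferase centre, at 398, 316 and 161 against 391, 312 and 219. The order of these neighbours changed from library to library, and it depends on the length used. Per kilobase of all annotated exons of a gene, Rpl4 ranked 1, Rpl32 2, Rpl41 3, Rps9 8 and Rps14 14. At the other end stood Rpl29 with 0.270, Rpl23a with 0.445, Rpl17 with 0.492, Rps13 with 0.690, Rpl12 with 0.698 and Rpl3 with 0.940 CPM per kb. The highest mean level was 1589 times the lowest, and the median member was at 17.0 CPM per kb.

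The level went with how much of a transcript another gene repeats. All stretches of 50 bases, called words, were taken from the principal GENCODE M21 transcript of each member, and a word counted as shared if another gene's transcripts held it on either strand. The 8 members with at most 25% of their words shared had a median of 136 CPM per kb, the 18 members between 25% and 50% had 42.5, the 23 between 50% and 75% had 9.52, and the 26 above 75% had 3.82. Over all 75 members Spearman's rho between level and shared words was -0.574, a description over genes measured in the same 6 libraries. For the level per unshared word it was -0.196, but dividing by the unshared words raises the members with many shared words by construction. Rps27, with 4 unshared words, moved from rank 67 to rank 26 in this way. Rps3 had 2.96% of its words shared, while Rps6 had 84.6% and Rps27 98.6%.

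Many of the counts were found on pseudogenes. The table held rows for 388 pseudogenes that share words with a member, and each was assigned to the member with which it shares most. Together they had 210260 counts, against 350046 for the 75 members. For 34 members the pseudogenes held more counts than the gene itself, and for 14 they held over 90% of the sum. Rpl3, which lies beside the peptidyl transferase centre, had 118 counts in all libraries together and its pseudogene Rpl3-ps1 had 19424. Rps29, a zinc-binding protein of the small subunit head, had 113 and its pseudogene Gm14303 had 10052. Rpl14 had 14525 and Rpl14-ps1 had 28350. The treatment of reads that match several places is not stated in the labels, and from gene counts, RNA of a gene and RNA of its copy cannot be told apart.

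Rps6 itself shows the pattern. The gene (ENSMUSG00000028495, chr4:86854660-86857412, minus strand, GRCm38) had 18, 11 and 9 counts after control and 46, 26 and 23 after pup exposure. Its pseudogene Rps6-ps4 had 737, 567 and 667 counts after control and 2113, 1071 and 960 after pup exposure. Of the 548 words of its coding sequence that lie in 1 exon, 0 were unshared. The following word, from coding position 629 and chr4:86854774-86854823, is the one found in most other genes, 9 of them, all with a row in the table.
Rps6: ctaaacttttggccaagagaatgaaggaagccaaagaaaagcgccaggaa
With its 10 pseudogenes added, Rps6 was at 68.6, 55.0 and 65.2 CPM of library totals after control and 120, 55.9 and 49.3 after pup exposure. The means were 62.9 ± 7.1 (SD, n = 3) and 75.2 ± 39.3 (SD, n = 3), the pup exposure libraries lying on both sides of the control libraries. The gene alone was at 1.59 CPM per kb, rank 66 of 75, and the sum was at 78.7, rank 34.

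Adding pseudogene counts narrowed the spread between members. The highest level became 294 times the lowest, and the median rose from 17.0 to 53.7 CPM per kb. The medians of the 4 classes of shared words became 138, 125, 54.8 and 32.5 CPM per kb, and rho became -0.447. Rpl14 then ranked highest with 457 CPM per kb. Rps29 moved from rank 61 to 9, Rpl26, at the exit of the nascent peptide tunnel, from 47 to 13 and Rpl3 from 70 to 14. Rps27, Rpl17, Rps23 and Rps12 stayed low, at 1.56, 2.02, 2.30 and 3.95 CPM per kb. For Rps27 the copy is Rps27rt, annotated as protein coding and therefore not added. It shares 292 words with Rps27 and had 1897 counts, against 46 for Rps27. The other low members also share at least 50 words with genes not annotated as pseudogenes, which were not added either. Of such genes sharing words, 18 of 21 for Rps12, 11 of 14 for Rps23 and 18 of 19 for Rpl17 were pseudogenes.

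**Figure D1:**
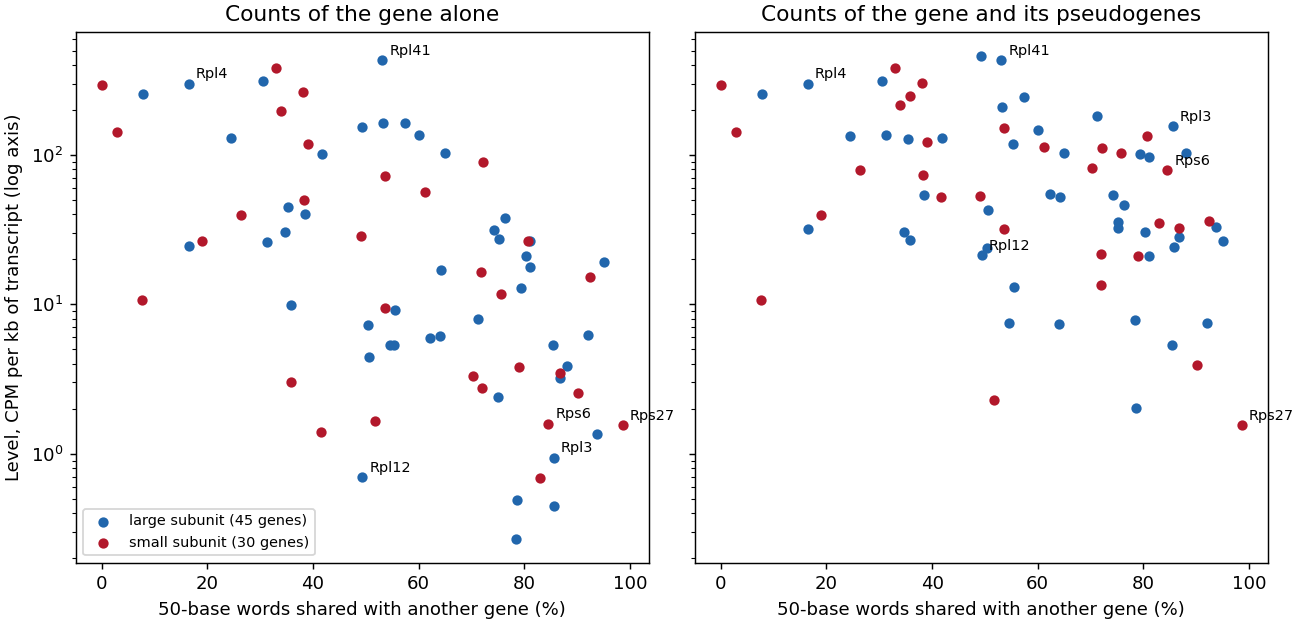
Level of each of the 75 members (CPM of library totals per kb of principal transcript, mean of 6 libraries, log axis) against the percentage of its 50-base words that another gene shares, for the gene alone (left) and with the counts of its pseudogenes added (right). Rpl3 stands at 0.940 on the left and at 155 on the right, while Rpl4, with few shared words, is at 300 in both.

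No ribosomal protein gene was called higher or lower after pup exposure. After removal of genes with few counts, 71 members were tested among 15498 genes, 42 of the large and 29 of the small subunit. Rpl17, Rpl23a, Rpl29 and Rps13 had too few counts, with 0 to 15 in any library. By edgeR's quasi-likelihood test with Benjamini-Hochberg adjustment at 0.05, 0 of 71 were called higher and 0 lower (all genes: 0% and 0%). At an unadjusted p under 0.05 the count was also 0 in each direction, where 6.31% of all genes were higher and 4.67% lower. DESeq2 called 0 members as well, with 0 at an unadjusted p under 0.05, while it called 0.406% of genes higher and 0.626% lower. The edgeR fit without a filter also called 0 members, with 0.255% of genes higher and 0.247% lower. Without control exposure replicate 3, an unadjusted p under 0.05 was reached by 9 of 72 members, all of them higher after pup exposure, where 4.63% of all genes were higher and 4.48% lower, and the smallest edgeR adjusted p of a member was 0.516. In a whole-tissue precipitate, fewer cells of a type, less RNA per cell and less RNA precipitated per cell cannot be told apart.

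The fitted log2 fold changes, pup over control exposure, centred near 0. Their median was -0.01 for the large subunit, 0.13 for the small subunit and 0.02 for all members, beside 0.03 for all genes tested. Of the large subunit genes 20 had positive and 22 negative values, and of the small subunit genes 17 and 12. Values ran from -0.98 (Rpl35a) to 1.0 (Rpl9) in the large and from -1.08 (Rps23) to 1.28 (Rps12) in the small subunit. On the log2 scale the difference between group means was smaller than the pooled SD of the libraries in 66 of 71 members. The exceptions were Rpl28, Rpl35a, Rpl5, Rps12 and Rps27. The median of that SD was 0.75 and the median absolute difference 0.25. Neither the count nor these medians were taken over all genes tested.

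**Figure D2:**
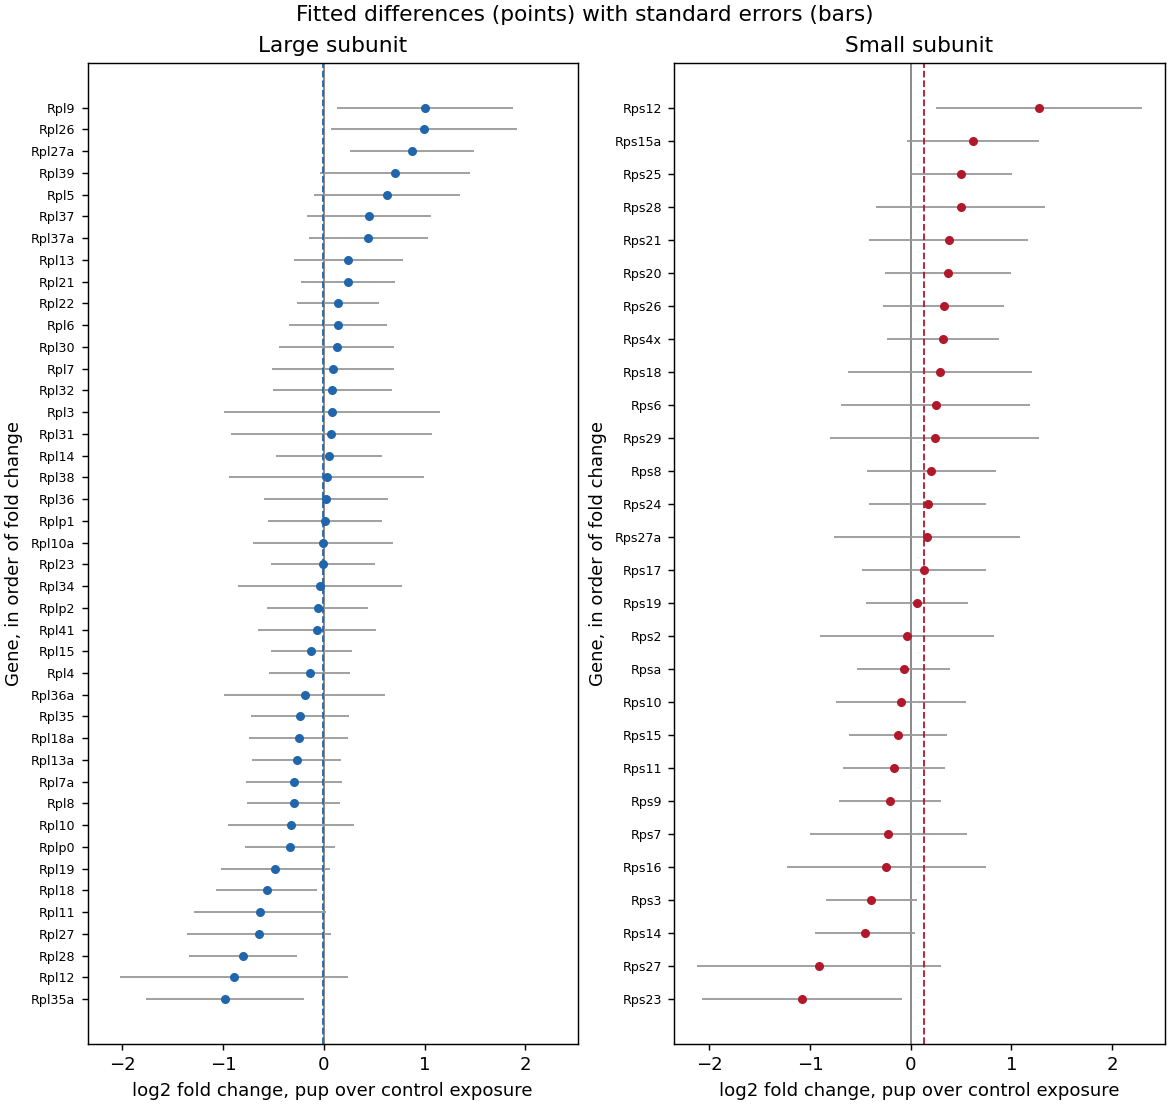
Fitted log2 fold change of the tested members but 1, pup over control exposure (points), with its standard error (bars) and the median of the subunit (dashed line), 42 large subunit genes on the left and 28 of 29 small subunit genes on the right. Most bars cross 0, and the medians are -0.01 and 0.13.

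Among large subunit genes the smallest p belonged to Rpl28 (ENSMUSG00000030432, chr7:4792874-4795066, plus strand), a protein that only eukaryotic ribosomes carry. Scaled by TMM factors, which correct library sizes for composition, it was at 8.23, 6.28 and 6.41 CPM after control and 2.73, 4.43 and 4.85 after pup exposure. All 3 control libraries lay above all 3 pup exposure libraries, with a log2 fold change of -0.80 ± 0.54 (SE; edgeR adjusted p = 0.580). Rpl9 was at 1.41, 1.43 and 1.41 against 5.63, 1.45 and 1.48 CPM. Its groups did not overlap, but only pup exposure replicate 1 stood away from the others. Rpl5, which joins Rpl11 and 5S ribosomal RNA in a particle that also restrains Mdm2, was at 2.59, 1.88 and 1.56 against 3.22, 3.51 and 2.67 CPM, also without overlap (log2 fold change 0.63 ± 0.72, SE; edgeR adjusted p = 0.751). Its partner Rpl11 had a log2 fold change in the other direction, -0.63 ± 0.65 (SE), and its groups overlapped. Rpl28, Rpl9 and Rpl5 were the only members whose groups did not overlap, 2 higher and 1 lower of 71. Of all genes, 10.1% were higher and 9.6% lower in that way. With pseudogene counts added, the groups of Rpl5, Rpl9 and Rpl28 overlapped, and the 1 member without overlap was Rps12, higher after pup exposure.

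Other large subunit genes with larger fitted changes were uneven within a group. Rpl27a was at 3.92, 9.15 and 11.7 CPM after control and 28.6, 5.95 and 10.8 after pup exposure, high in pup exposure replicate 1 only (log2 fold change 0.88 ± 0.62, SE; edgeR adjusted p = 0.593). Rpl26 was at 4.31, 1.08 and 3.28 against 3.65, 0.708 and 12.9 CPM, high in pup exposure replicate 3 only. Its log2 fold change of 0.99 became -0.16 with the counts of its pseudogenes, which held 95.1% of the sum. Rpl35a was at 2.35, 3.05 and 5.63 against 2.57, 2.13 and 0.841 CPM, and Rpl18 at 15.6, 22.8 and 44.5 against 20.2, 9.31 and 26.4. In both genes control replicate 3 was the highest library and the groups overlapped.

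By role, the large subunit lists gave no group that moved. The stalk, the flexible arm that recruits elongation factors, is built from Rplp0, Rplp1 and Rplp2 on a base with Rpl12. Rplp0 was at 143, 137 and 193 CPM after control and 194, 59.1 and 122 after pup exposure. Rplp1 was at 25.4, 51.0 and 144 against 88.7, 44.0 and 89.3, and Rplp2 at 23.0, 33.4 and 85.3 against 54.7, 27.4 and 53.3 CPM. In all 3 the groups overlapped, and pup exposure replicate 2 lay below the other pup exposure libraries. Rpl12 had only 6 to 21 counts per library, with 97.1% of its sum on pseudogenes. The median log2 fold change of the 4 stalk genes was -0.20. It was 0.07 over the 7 tested of 9 genes at the tunnel exit, and -0.22 over Rpl3, Rpl4, Rpl8 and Rpl10 around the peptidyl transferase centre. Rpl4 was at 540, 463 and 411 CPM against 587, 346 and 348, and Rpl41 at 89.2, 113 and 430 against 184, 124 and 295. Rpl32 was at 63.1, 104 and 345 against 178, 103 and 263 CPM. Control replicate 3 was the highest library for Rpl41 and Rpl32 and the lowest control library for Rpl4.

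In the small subunit the smallest p was that of Rps12 (ENSMUSG00000061983, chr10:23785183-23787275, minus strand), a protein of the head, the upper lobe of the subunit. It was at 0.627, 0.628 and 0.938 CPM after control and 3.16, 0.708 and 1.43 after pup exposure, from 6 to 59 counts, and the groups overlapped (log2 fold change 1.28 ± 1.02, SE; edgeR adjusted p = 0.636). Rps25, also in the head, was at 13.1, 18.9 and 52.7 against 44.9, 28.4 and 45.9 CPM (log2 fold change 0.50 ± 0.50, SE). Rps15a was at 4.23, 10.3 and 32.3 against 31.5, 11.3 and 28.5 CPM. Rps12 stood highest in pup exposure replicate 1, and Rps25 and Rps15a in control replicate 3, with control replicate 1 the lowest library for all 3 genes. Over the 14 head genes the median log2 fold change was 0.15, with 10 positive and 4 negative values.

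On the body and platform of the small subunit the median was -0.04 over 15 tested genes, with 7 positive and 8 negative. Rps23, which sits in the decoding centre, was at 1.18, 1.26 and 5.0 CPM after control and 0.804, 0.638 and 2.03 after pup exposure, highest in control replicate 3 (log2 fold change -1.08 ± 0.99, SE; edgeR adjusted p = 0.683). Rps14 was at 130, 118 and 343 against 157, 84.1 and 190 CPM, and Rps9 at 194, 239 and 542 against 439, 162 and 245. Rpsa was at 9.41, 15.8 and 23.4 against 19.9, 9.85 and 16.4 CPM. Rps27a, made as a fusion with ubiquitin, was at 1.02, 1.61 and 2.5 against 3.49, 1.13 and 1.09 CPM. None of these separated the groups. Rps6 had a log2 fold change of 0.25 ± 0.94 (SE) on its own counts and -0.08 ± 0.47 (SE) with its pseudogenes.

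The members moved largely together between libraries, and each exposure held high and low libraries. After each gene was centred on its mean over the libraries, on the log2(scaled CPM + 0.5) scale, the median large subunit gene was at -0.47, -0.26 and 0.90 in control replicates 1 to 3 and at 0.34, -0.53 and 0.05 in pup exposure replicates 1 to 3. The small subunit was at -0.59, -0.30 and 0.97 after control and 0.60, -0.58 and 0.28 after pup exposure. Of 71 members, 45 had their highest value in control replicate 3 and 17 in pup exposure replicate 1, while 32 had their lowest in control replicate 1 and 26 in pup exposure replicate 2. The first principal component held 71.5% of the variance over the 52 members with at least 300 counts, and on it control replicates 1 and 3 stood at the 2 ends. No such component was taken over other genes, and their highest and lowest libraries were not counted. In control replicate 3 and pup exposure replicate 2, short genes outside the members were high and low as well. Other genes under 400 coding bases with at least 300 counts (n = 591) had medians of 0.84 in control replicate 3 and -0.76 in pup exposure replicate 2. Ribosomal proteins outside the symbol rule were at 0.98 and -0.71 in those libraries. The other genes over 600 coding bases (n = 3572) were at 0.11 and -0.22 there. The 17 members of that length with at least 300 counts were at 0.73 and -0.64. In pup exposure replicate 1 and control replicate 1, the other genes under 400 bases were at -0.03 and -0.20. The 17 such members were at 0.38 and -1.27. Other genes thus shared the high and low libraries only in part. The top library depends on the scaling: by library totals alone, 40 members were highest in pup exposure replicate 1 and 8 in control replicate 3. The TMM factors were 0.605 in control replicate 3 and 1.39 in pup exposure replicate 2. With pseudogene counts added, the large subunit medians were -0.73, -0.31 and 0.95 after control and 0.42, -0.58 and 0.18 after pup exposure.

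**Figure D3:**
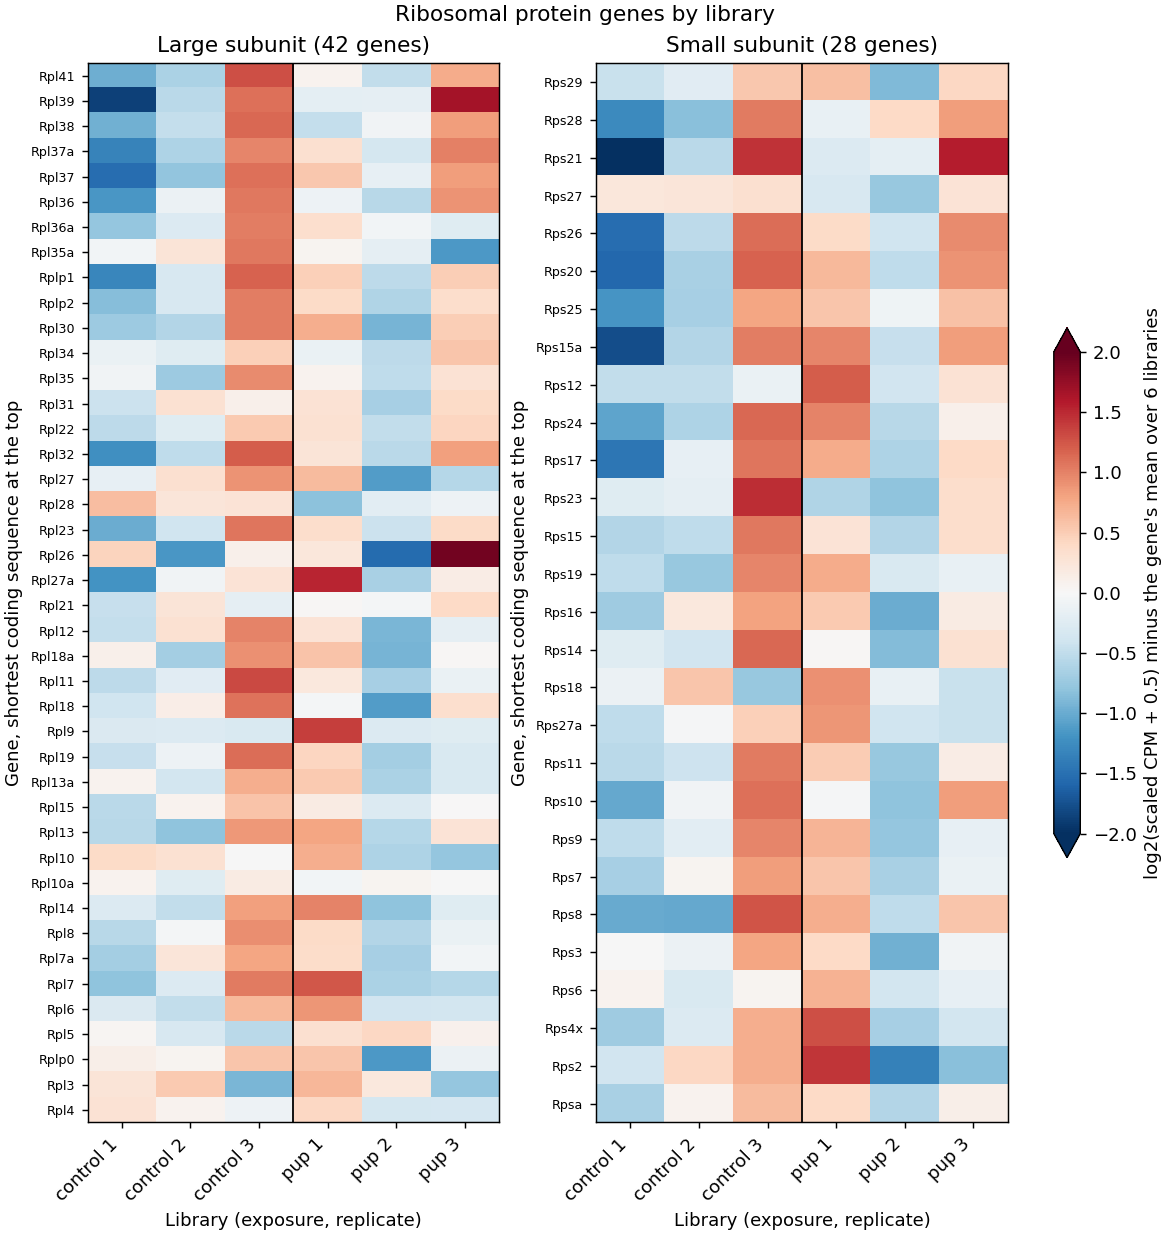
The tested members but 1 (rows, shortest coding sequence at the top) in the 6 libraries, as log2(scaled CPM + 0.5) minus its mean over libraries, with red for higher and blue for lower. Control replicate 3 is red for most genes, control replicate 1 and pup exposure replicate 2 are mostly blue, and in pup exposure replicate 3 the red lies among the short genes.

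Markers of other cells differed between the same libraries. The 10 gland genes in the table, secreted odorant-binding proteins, lipocalins and related products, held 27.9, 35.7 and 51.8% of counts after control and 35.8, 19.4 and 41.6% after pup exposure. Control replicate 3 was the highest library by share and by the TMM-scaled centred median of the list (1.17), as it was for the TMM-scaled medians of both subunits. By library totals alone, however, 8 members were highest there. Obp2a, Obp2b, Lcn3, Lcn4 and Lcn11 were each highest in control replicate 3, but the scarcer Obp1a, Obp1b, Muc2 and Bpifb9b were not. Pup exposure replicate 2 was the lowest library for the gland share and for the list's median (-1.20). The ribosomal protein medians of that library were within 0.1 of those of control replicate 1, the other low library. The 7 vomeronasal neuron markers summed to 1991, 1828 and 877 CPM of library totals after control and 1878, 2476 and 1655 after pup exposure, lowest in control replicate 3. In library totals a larger gland share leaves less for all other genes. The TMM-scaled centred medians of these markers parted less, at -0.16, -0.21 and -0.37 after control and 0.18, 0.43 and 0.04 after pup exposure. Omp, which marks mature chemosensory neurons, was present in every library, and Trpc2 was not matched to a row. No marker of either list was at 0 in all libraries. The part of these cells in the ribosomal protein levels was not tested.

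Large and small subunit genes differed little from each other. The median log2 fold change of the large subunit minus that of the small subunit was -0.14. By library the centred medians, large minus small, were 0.12, 0.04 and -0.07 after control and -0.26, 0.05 and -0.22 after pup exposure, so that the ranges overlapped. Without pup exposure replicate 1 the difference of the medians turned to 0.10. Over the members with under 50% of their words shared it was -0.0038. Large subunit genes held 0.194, 0.190 and 0.219% of counts after control and 0.313, 0.197 and 0.220% after pup exposure, and small subunit genes 0.119, 0.121 and 0.169% against 0.229, 0.120 and 0.150%. The ratio of the large to the small share was 1.63, 1.57 and 1.30 after control and 1.37, 1.64 and 1.47 after pup exposure. The median level per kb was 17.9 CPM for the large and 15.8 for the small subunit.

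Short and long ribosomal protein genes parted between libraries of the same group. This was noticed after the values were seen and is given as a description, with no test. Over the 52 members with at least 300 counts, Spearman's rho between the centred value in a library and coding length was 0.61, 0.49 and -0.52 in control replicates 1 to 3 and 0.40, -0.46 and -0.76 in pup exposure replicates 1 to 3. The 17 members under 400 coding bases minus the 17 over 600 differed in their median by -0.89, -0.47 and 0.33 after control and -0.34, 0.14 and 1.03 after pup exposure (log2). Both groups therefore held libraries with higher short genes and libraries with higher long genes. Rpl39, a short tunnel exit protein with 153 coding bases, was higher in pup exposure replicate 3 than in replicate 1 by 1.86 on the log2 scale, and Rps21 (249 bases) by 1.83. Rpl7 (810 bases) differed by -1.82 and Rps2 (879 bases) by -2.27. From control replicate 1 to 3 the differences were 2.98 for Rpl39, 3.46 for Rps21, 1.84 for Rpl7 and 1.11 for Rps2.

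The gradient was also present among members with few shared words. Spearman's rho between coding length and the difference of pup exposure replicate 3 minus replicate 1 was -0.693 over the 52 members and -0.765 over the 23 with under 50% of their words shared. For control replicate 3 minus replicate 1 it was -0.652 and -0.840. Over 5095 other genes of the same range of coding lengths it was -0.028 and -0.326. Their short genes minus their long genes were at -0.30, -0.15 and 0.74 after control and -0.0044, -0.55 and 0.20 after pup exposure, so that control replicates 1 and 3 parted in them as well. Over 76 mitochondrial ribosomal protein genes rho with coding length was 0.41, 0.33 and -0.67 after control and -0.11, 0.48 and -0.25 after pup exposure, with the same signs as the members in the control libraries. In pup exposure replicate 2 the 5095 other genes had a rho of 0.36 where the members had -0.46. The points are genes of the same libraries, so they are not independent. Over all 71 tested members the log2 fold change between exposures had a rho of -0.202 with coding length and of 0.0096 with shared words.

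**Figure D4:**
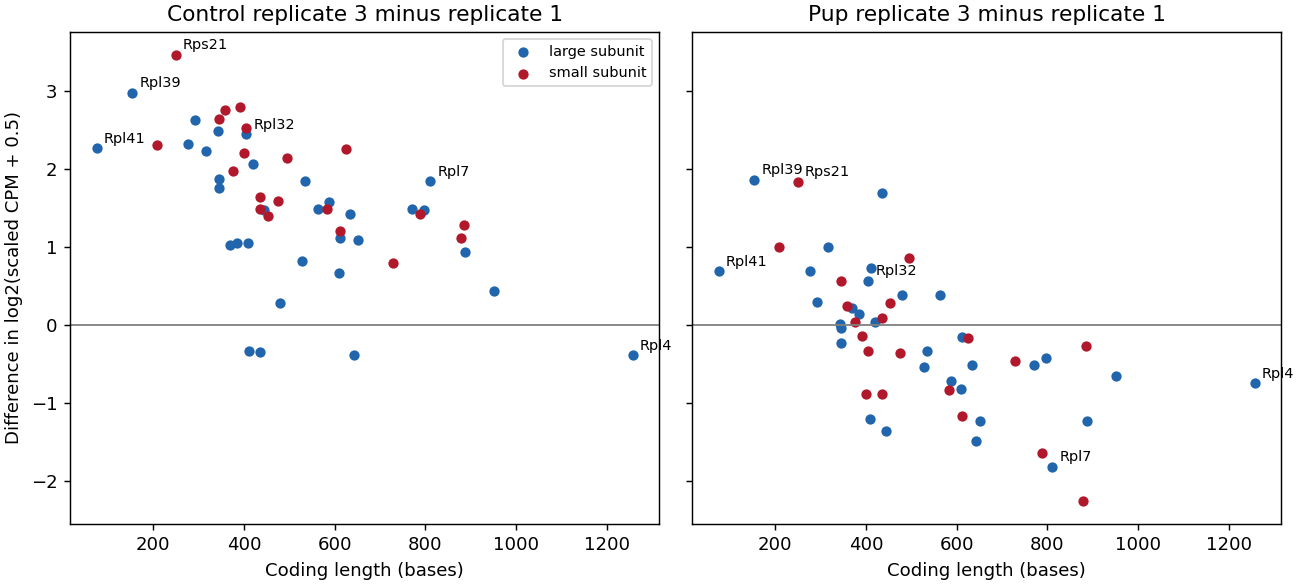
Difference between 2 libraries of the same exposure, in log2(scaled CPM + 0.5), against coding length for the 52 members with at least 300 counts, control replicate 3 minus 1 on the left and pup exposure replicate 3 minus 1 on the right. Short genes such as Rpl39 and Rps21 lie high in both panels, and Rpl4 lies at -0.39 on the left and -0.75 on the right.

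Genes related to ribosomes were read beside the members. The ribosomal proteins and paralogues outside the symbol rule, such as Fau and Rpl36al, had a median log2 fold change of -0.35 over 9 tested of 12. The 16 other mRNAs known to carry TOP motifs, mostly translation factors, had a median of 0.01 with 8 positive and 8 negative values. The groups overlapped for 14 of them and did not for 2, both higher (10.1% of all genes). Eif3f, with the smallest edgeR p of the list, was at 16.3, 14.4 and 24.2 CPM after control and 63.2, 15.9 and 25.6 after pup exposure, with overlap. Eif4b, an initiation factor and target of S6 kinase, was at 114, 105 and 134 CPM after control and 178, 216 and 153 after pup exposure, without overlap (log2 fold change 0.63 ± 0.36, SE; edgeR adjusted p = 0.521). Nap1l1, a histone chaperone, was at 32.6, 28.2 and 32.7 against 46.9, 44.6 and 37.2 CPM, also without overlap. Among the members, those with a TOP-like run had a median log2 fold change of -0.10 (n = 23) and those without one -0.01 (n = 31).

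Of 28 ribosome assembly genes 0 were called by edgeR, and their median log2 fold change was -0.39, with 20 negative values. At an unadjusted p under 0.05, 1 was higher and 2 were lower, where 6.31% and 4.67% of all genes were. The groups did not overlap for 6 genes, all lower (9.6% of all genes). Rrn3, the initiation factor of RNA polymerase I, was at 13.9, 13.4 and 18.4 CPM after control and 18.2, 42.4 and 35.4 after pup exposure. Nop16 was at 41.2, 18.1 and 24.1 against 14.6, 9.74 and 14.2 CPM, and Nhp2, of the H/ACA particles that modify ribosomal RNA, at 48.4, 51.6 and 140 against 43.1, 21.5 and 42.1. Nop16 and Nhp2 are among the 6. The edgeR adjusted p was 0.424 for Rrn3 and Nop16 and 0.446 for Nhp2.

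The mitochondrial ribosomal protein genes, encoded in the nucleus for the ribosome that translates mitochondrial DNA transcripts, had a median log2 fold change of -0.61 over 80 tested, with 74 negative and 6 positive values. By edgeR 0 were called, 9 were lower and 0 higher at an unadjusted p under 0.05 (4.67% and 6.31% of all genes), and 17 had groups that did not overlap, all lower (9.6% of all genes). Mrpl46 was at 50.4, 36.9 and 50.2 CPM after control and 23.4, 17.4 and 25.5 after pup exposure (log2 fold change -1.05 ± 0.36, SE; edgeR adjusted p = 0.424). Mrpl28 was at 168, 92.6 and 152 against 67.2, 49.2 and 73.5 CPM. All control libraries lay above all pup exposure libraries in both genes. By library the mitochondrial list was at 0.09, 0.07 and 0.79 after control and -0.02, -0.86 and 0.00 after pup exposure. The difference between the cytosolic and the mitochondrial list was not tested. In CPM of library totals, without TMM scaling, sustentacular cell markers summed to 4911, 3830 and 2305 after control and 2222, 1979 and 1720 after pup exposure. Red blood cell markers summed to 233, 271 and 357 against 172, 72.7 and 121. With TMM scaling Cbr2, the most abundant sustentacular marker, was at 3192, 2839 and 3058 against 1533, 906 and 1272 CPM. The part of these cells in the mitochondrial values was not tested.

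**Figure D5:**
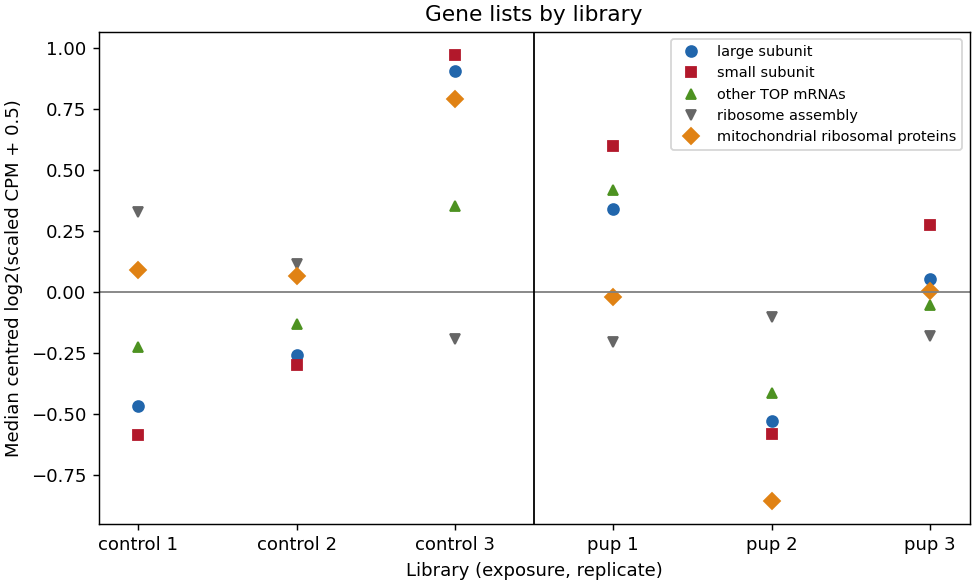
Median of each gene list in each library, as log2(scaled CPM + 0.5) centred per gene on its mean over 6 libraries. Large and small subunit genes lie close together and span both exposures, at 0.90 and 0.97 in control replicate 3 and -0.53 and -0.58 in pup exposure replicate 2, and the mitochondrial list is at 0.79 and -0.86 in the same 2 libraries.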

How the data were processed

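RNA precipitated with an antibody to phosphorylated S6 was sequenced in 3 control exposure and 3 pup exposure libraries, made with a template-switching low-input kit per the labels' protocols. The authors deposited 1 table of raw read counts, whole numbers with 1 row per Ensembl gene. Reads were placed on GRCm38, per the submitters' processing notes. Aligner, counter and annotation: not given in the sources used here. IDs were named from GENCODE M21 (36639 of 38561 matched).

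Counts were tested with edgeR 4.0.16 in R 4.3.3 (quasi-likelihood, TMM, filterByExpr with a minimum count of 10 and total of 15, Benjamini-Hochberg at 0.05) in all 6 libraries with group as the only term. The script was tested on simulated data with known changes. A standard error is the absolute log2 fold change over the root of F. Levels used library totals, and 0.5 was added to scaled CPM before logs. Alternatives were RLE, library totals, totals without the 50 most abundant genes, no filter, a stricter filter (1 CPM in 3 libraries and 50 counts), DESeq2 1.42.0, a replicate block and leaving out each library. Adding pseudogene counts, and restricting medians to members with few shared words, were chosen after seeing the data, as was the coding length description.

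The members and lists were chosen with earlier results of these data known. Genes with full statistics were, per subunit, those with the 5 smallest p, the 2 highest and 2 lowest log2 fold changes and the 3 highest and lowest levels, together with Rps6, Rpsa, the stalk genes, Rpl41 and Rps27a, and up to 4 genes of each other list by p. Not every such gene is described, and 1 small subunit gene, included in all fits, counts and medians, is not reported here by name. Others, such as Rpl5 and Rps29, were named after their values were seen. The genes most like Rps6 in pattern are not given, since Rps6 had 9 to 46 counts per library.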

Additional observations from a re-analysis of the deposited data

How the results depend on the processing

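No member was called under any of the 14 alternatives, including DESeq2 and the fit without a filter, which called 50 and 61 genes higher and 77 and 59 lower. Without control exposure replicate 3, 9 members were higher at an unadjusted p under 0.05 (4.63% of all genes; smallest edgeR adjusted p of a member 0.516). With each library left out in turn, the median log2 fold change ranged from -0.30 to 0.45 for the large and from -0.32 to 0.58 for the small subunit, their difference from -0.27 to 0.10, and the share difference from 0.00634 to 0.119 percentage points. The values of 0.45 and 0.58 are those without control replicate 3. The -0.32 and the 0.10 are those without pup exposure replicate 1. By library totals only, the medians were 0.34 and 0.49 and that of all genes 0.31. With pseudogene counts added they were -0.04 and 0.07, and the share difference was 0.138 points. Outside the 50 most abundant genes it was 0.0106 points.

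Signs of named genes turned under some settings, mostly for genes near 0 but also for Rpl9, Rpl26 and Rpl12, which stood at 1.0, 0.99 and -0.89. By library totals only, log2 fold changes became 0.075 for Rpl4, 0.43 for Rpl41, 0.37 for Rplp2, 0.094 for Rps16, 0.19 for Rps9 and 0.27 for Rpsa. Without the 50 most abundant genes they were 0.069 for Rpl41, 0.058 for Rplp2 and 0.029 for Rpsa. Rplp1 was at -0.023 by RLE and -0.013 by DESeq2. With pseudogenes added, Rpl12 was at 0.19, Rpl26 at -0.16, Rpl9 at -0.062, Rps6 at -0.076 and Rpsa at 0.062. Leaving out 1 library gave ranges of -0.42 to 1.51 for Rpl26, -0.30 to 1.08 for Rpl32, -0.44 to 0.0074 for Rpl4, -0.42 to 0.95 for Rpl41, -0.80 to 0.024 for Rplp0, -0.39 to 0.92 for Rplp1 and -0.39 to 0.64 for Rplp2. The ranges were -0.70 to 0.17 for Rps14, -0.69 to 0.25 for Rps16, -0.60 to 0.48 for Rps27a, -0.30 to 0.53 for Rps6, -0.68 to 0.34 for Rps9 and -0.34 to 0.25 for Rpsa. Rps27 was not tested in 3 of these fits. The cause was not tested beyond the construction of each setting.

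The labels tie libraries across the 2 groups by replicate number only. Over all genes tested, same-numbered libraries had correlations of -0.04, 0.18 and 0.07 in their deviations from group means, and not every library correlated best with its own number. Over the ribosomal protein genes alone the correlations were 0.25, 0.23 and 0.50, and every library correlated best with its own number. For control replicate 2 the margin was small, with 0.225 for its own number and 0.223 for pup exposure replicate 1. This is at most a hint from the data and not from the design. With the replicate block 0 members were called, the subunit medians were 0.03 and 0.05, and Rpl41 was at 0.21, Rplp2 at 0.081 and Rps27a at -0.012. Counts of 9 to 46 for Rps6 and under 16 for the 4 untested members limit what can be read from them.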
